A study of Mus musculus with 6 samples.

Results

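The genes for the proteins of the cytosolic ribosome were examined in hearts of Mc4r KO and WT mice. They were chosen by name and biotype, as protein-coding genes whose symbol starts with Rpl or Rps and a digit, together with Rplp0, Rplp1, Rplp2 and Rpsa, while the S6 kinases and names with -ps were left out. This gave 86 of the 54532 genes in the deposited table, 52 named for the large subunit and 34 for the small subunit. All 6 mice were 12 weeks old, males on the C57B/6/N background and littermates from crosses of heterozygotes, 3 of them homozygous for the Mc4r knockout and 3 wild type, fed standard chow. The knockout is present in the whole animal, so no cell type is singled out by it, and 1 library was made from each mouse after selection of polyadenylated RNA. The question of the study was which genes change in the heart with loss of Mc4r before heart function is impaired.

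The ribosome builds every protein of the cell. Its small subunit reads the mRNA and its large subunit joins the amino acids, and each of the ribosomal proteins has a fixed place in the particle, with few exceptions as a single copy. In mammals nearly all these mRNAs begin with a cytosine followed by a run of pyrimidines, the 5′ terminal oligopyrimidine or TOP motif, through which the mTOR kinase and the binding protein LARP1 set their translation. In the heart, ribosome production is known to increase when cardiomyocytes grow. Most of these genes have many processed pseudogenes, which are copies of the mature mRNA elsewhere in the genome, and a few have a paralog used in particular tissues, of which Rpl3l in striated muscle is the best known.

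The start sites of several genes are shown here because the TOP motif is the feature that sets these mRNAs apart from most others. The 30 bases around the start of transcription are given 5′ to 3′ on the strand of the gene, with 15 bases on each side of the boundary before the first transcribed base, and with the longest run of pyrimidines in capitals. Of runs equally long, only the first is in capitals. This applies to Rps27rt, where another run of equal length begins at the first transcribed base. The sequences are from RefSeq, build GRCm38.p6. The first 4 are not the members of highest level, but were taken from genes whose level was higher in the Mc4r KO mean. The next 2 belong to Rps27 and its gene copy, and the last 2 to paralogs. Whether the motif goes with the change in level was not tested.
Rpl7a, chr2:26910792-26910821, + strand: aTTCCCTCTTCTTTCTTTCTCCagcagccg
Rpl28, chr7:4792950-4792979, + strand: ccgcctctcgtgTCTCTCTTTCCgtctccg
Rpl35, chr2:39005117-39005146, - strand: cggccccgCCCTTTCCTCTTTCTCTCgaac
Rplp2, chr7:141447636-141447665, + strand: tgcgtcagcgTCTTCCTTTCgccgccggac
Rps27, chr3:90213634-90213663, - strand: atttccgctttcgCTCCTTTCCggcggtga
Rps27rt, chr9:114982725-114982754, - strand: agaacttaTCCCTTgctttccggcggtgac
Rpl22l1, chr3:28805493-28805522, + strand: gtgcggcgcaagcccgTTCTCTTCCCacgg
Rpl3l, chr17:24727811-24727840, + strand: gagtgttctagctctgtcatttgaCCTCTg
Runs of 21, 11, 18 and 10 pyrimidines lie across or beside the start in Rpl7a, Rpl28, Rpl35 and Rplp2. The longest run near this start of Rpl3l is 5 bases long and lies within the transcript.

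RefSeq promoters were available for 66 of the 86 genes, with 78 start sites among them. A cytosine followed by at least 4 pyrimidines, beginning within 5 bases of the start on the transcribed strand, was found at 32 of the 78 start sites (41.0%). It was found at 18.4% of all 32851 start sites of the same reference. The letters CCGGAAG, searched on both strands from 250 bases before the start to 50 bases after it, were in 34.6% of the promoters of ribosomal protein genes and in 8.86% of all promoters. The letters AAGATGGC were in 10.3% and 2.75%, and these letters can share AAG with the end of the motif before, although the joined form was in 0 of the 78 promoters. The letters TATAAA were in 8.97% and 13.6%. These matches describe the letters of the promoters and say nothing of the factors that bind there.

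The libraries held from 14691076 to 16047003 reads on genes. Values of single libraries are given in the order of replicates 1, 2 and 3 of a group. The labels give the tissue as heart and, in the titles, as muscle. Levels are in FPKM, fragments per kilobase of gene scaled by a factor for each library. The sum of the 10 cardiomyocyte markers was between 14807 and 19634 FPKM in every library. The sum of the 10 skeletal muscle markers was at most 2.32 FPKM, and Myh4 and Tnnc2 among them were at 0. Mc4r itself had 0 reads in 5 libraries and 2 reads in WT replicate 3, so its level cannot be used to check the genotypes in the heart. Mitochondrially encoded genes took 34.9%, 32.6% and 26.3% of the reads in WT, against 23.3%, 25.8% and 23.4% in Mc4r KO. WT replicate 3 thus lay nearer to the Mc4r KO libraries than to the other WT libraries in this share, and the number of calls, the median and the values of the genes whose call depends on it are also given without it.

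The ribosomal protein genes were among the most strongly expressed genes of the heart. Their median level was 75.6 FPKM, against 2.05 FPKM over all genes tested. A level of at least 100 FPKM was reached by 32 genes, and 46 genes lay between 10 and 100 FPKM. The remaining 8 genes were lower, 4 of them between 1 and 10 FPKM, 2 between 0.1 and 1 FPKM, and 2, Rpl10l and Rpl36al, under 0.1 FPKM. The genes tested were those with a mean of at least 0.1 FPKM, and 84 of the 86 passed. Rpl10l, which is known from the testis, had 0 reads in every library. Rps19bp1 and Rpl7l1 were taken in by their names but are known as a nucleolar protein and a factor of ribosome assembly rather than proteins of the mature ribosome. Fau, which carries a further ribosomal protein fused to a ubiquitin-like domain, was outside the name rule.

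None of the 84 genes differed between Mc4r KO and WT by the limma test, where both a Benjamini-Hochberg adjusted p under 0.05 and a log2 fold change of more than 0.75 in size were required for a call. The share of all 18035 tested genes that were called was 0.460%. Without the threshold on the fold change, 0 ribosomal protein genes and 105 of all genes had an adjusted p under 0.05. At an unadjusted p under 0.05 there were 28 ribosomal protein genes. Of these 24 were higher in Mc4r KO, which is 28.6% of the 84 against 12.0% of all tested genes, and 4 were lower, which is 4.76% against 8.83%. With limma voom on the reads recovered from the FPKM, again 0 genes were called, 2 had an adjusted p under 0.05 and 36 an unadjusted one. In bulk tissue, fewer cells of a type and less RNA per cell cannot be told apart.

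The log2 fold changes, on the log2(FPKM + 0.1) scale and as Mc4r KO minus WT, were above 0 for 58 genes and below 0 for 26. Their median was 0.16, with quartiles of -0.05 and 0.41, while the median over all tested genes was -0.01. The median was 0.21 over the 50 tested large subunit genes and 0.11 over the 34 small subunit genes. In 17 genes all 3 Mc4r KO libraries were higher than all 3 WT libraries, which is 20.2% of the members against 14.1% of all tested genes. In 7 genes they were all lower, which is 8.33% against 12.4%. The median depended on how the libraries were scaled, and was -0.036 when the values were scaled to the sum outside the mitochondrial chromosome, where the median of all genes was -0.19. It was -0.024 after quantile normalization and -0.032 with the mitochondrial share of the reads as a covariate. This share was higher in every WT library than in every Mc4r KO library, so the covariate cannot be well separated from the genotype.

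**Figure D1:**
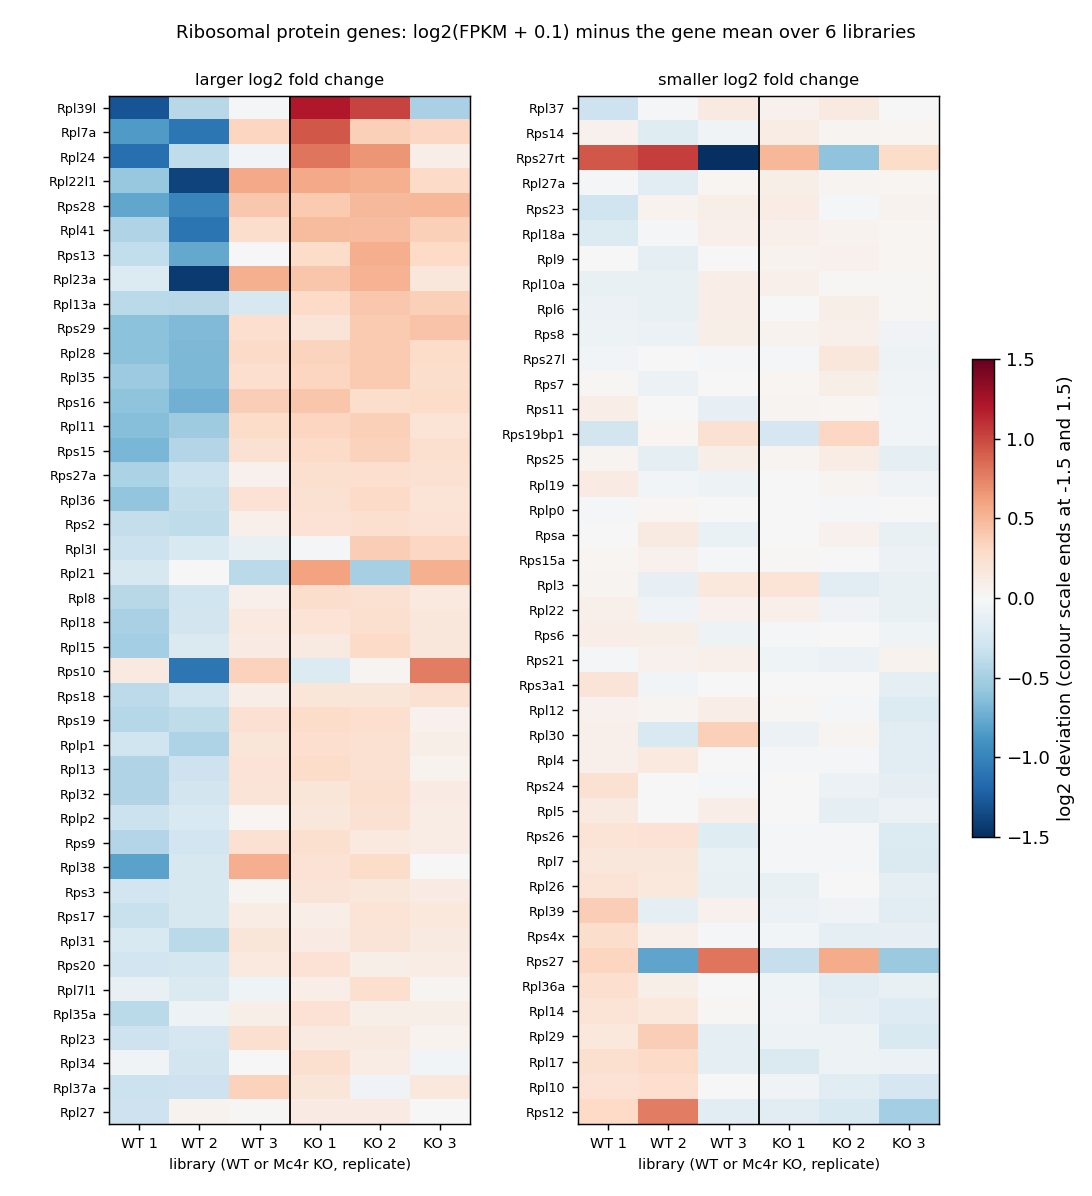
Deviation of tested ribosomal protein genes (rows, ordered by log2 fold change) from their own mean in each of the 6 libraries (columns), on the log2(FPKM + 0.1) scale, with red above and blue below the mean. WT replicates 1 and 2 are blue for most genes of the left panel, whereas WT replicate 3 has the colours of the Mc4r KO libraries.

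Much of the variation of these genes among the 6 libraries lay along the first principal component, which held 70.7% of it. The scores were -3.35, -3.86 and 1.96 in WT against 1.89, 2.27 and 1.10 in Mc4r KO. The genes were not scaled to equal variance, so the most variable genes weigh most in this component. The median deviation of the genes from their own mean was -0.20, -0.17 and 0.08 (log2) in WT against 0.11, 0.11 and 0.03 in Mc4r KO. WT replicates 1 and 2 therefore stood on one side, and WT replicate 3 lay with the Mc4r KO libraries. Among the WT libraries, in the same order, 11, 13 and 41 of the 84 genes lay within the range of the Mc4r KO libraries. Below this range lay 50, 51 and 22 genes, and above it 23, 20 and 21.

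The number of calls changed with WT replicate 3. Without WT replicate 3, limma called 13 of the 84 genes, when it called 4.04% of all tested genes (726, against 83 with all 6 libraries). This library was singled out because it lay near the Mc4r KO libraries, so leaving it out favours calls. Rpl7a, Rpl11, Rpl13a, Rpl22l1, Rpl28, Rpl35, Rpl41, Rps13, Rps15, Rps16, Rps28 and Rps29 were then higher in Mc4r KO, with Rps12 lower. Their log2 fold changes without WT replicate 3 were 1.5 for Rpl7a, 1.44 for Rpl22l1, 1.34 for Rps28, 1.21 for Rpl41, 0.98 for Rpl28, Rps29 and Rps16, 0.94 for Rps13, 0.93 for Rpl35, 0.88 for Rpl11, 0.86 for Rps15 and 0.76 for Rpl13a, and -0.83 for Rps12. With weights for each library estimated from the data, 7 genes were called (Rpl7a, Rpl28, Rpl35, Rpl41, Rps13, Rps28 and Rps29), and 2.41% of all tested genes. Leaving out any other library gave 0 calls. The median log2 fold change was 0.24 without WT replicate 3 and 0.12 without WT replicate 1. The part of the mitochondrial share of the reads in these differences was not tested beyond the covariate above.

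The summed level of the ribosomal protein genes was 7768, 7660 and 8920 FPKM in WT, against 9251, 9223 and 8747 FPKM in Mc4r KO. Taken as a share of the FPKM outside the mitochondrial chromosome, it was 3.59%, 3.55% and 3.65% in WT and 3.74%, 3.49% and 3.35% in Mc4r KO. On this scale the groups overlapped, and the ratio of the Mc4r KO mean to the WT mean was 0.979. It was 1.12 for the FPKM as deposited and 1.199 as a share of all FPKM, mitochondrial genes included. The ratio of large to small subunit FPKM was 1.22, 1.24 and 1.44 in WT against 1.36, 1.38 and 1.34 in Mc4r KO, where again WT replicates 1 and 2 were lowest.

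Rplp1, Rplp2 and Rplp0 form the stalk of the large subunit to which the elongation factors bind. Rplp1 had the highest level of all members, with 483, 433 and 678 FPKM in WT and 712, 700 and 632 FPKM in Mc4r KO. WT replicates 1 and 2 were lowest, and the log2 fold change was 0.38 (SE 0.18, limma adjusted p = 0.27). Rplp0, which often serves as a reference gene in quantitative PCR, was between 364 and 375 FPKM in WT and between 363 and 367 FPKM in Mc4r KO. Its difference of -0.02 (log2, SE 0.08) was among the smallest of all members. Rplp2 had 60.4, 64.3 and 77.1 FPKM in WT and 84.9, 88.3 and 81.4 FPKM in Mc4r KO. Its groups did not overlap, with a log2 fold change of 0.34 (SE 0.11, limma adjusted p = 0.15). Within the stalk, the levels of Rplp1 and Rplp2 thus varied more between libraries than those of Rplp0.

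Rpl5 and Rpl11 form, with the 5S rRNA, the particle that also binds the p53 regulator Mdm2. The level of Rpl5 was 70.0, 64.4 and 68.3 FPKM in WT and 63.4, 58.1 and 60.1 FPKM in Mc4r KO. Its Mc4r KO libraries were all lower, with a log2 fold change of -0.16 (SE 0.08, limma adjusted p = 0.30). Rpl11 had 35.2, 37.8 and 66.4 FPKM in WT and 68.7, 70.3 and 63.0 FPKM in Mc4r KO, so that WT replicate 3 was within the Mc4r KO range. Its log2 fold change was 0.59 (SE 0.23, limma adjusted p = 0.21).

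Rpl13a, a protein of the large subunit whose introns host small nucleolar RNAs, had the smallest adjusted p of all members. The gene lies on chr7:45125558-45128761 (mm10, - strand). Its level was 2.38, 2.37 and 2.69 FPKM in WT and 3.90, 4.27 and 4.13 FPKM in Mc4r KO, from 71, 72 and 97 reads and 128, 137 and 140 reads. All Mc4r KO libraries were above all WT libraries, WT replicate 3 included. The log2 fold change of 0.70 (SE 0.11) had a limma adjusted p of 0.0504, just outside the threshold, and was also below the required size. Of its transcript, 57.4% of the words of 50 bases occurred in other genes, 4 of them pseudogenes, and 35.4% of its exon length was shared with other genes on the same strand. The part of such copies in its low count was not tested.

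Rpl7a, Rpl24, Rpl22l1, Rps28 and Rpl41 had the largest positive log2 fold changes among the members with a mean of at least 1 FPKM. Rpl7a, on chr2:26910764-26913318 (mm10, + strand), had 7.49, 6.37 and 17.0 FPKM in WT and 26.0, 17.4 and 16.9 FPKM in Mc4r KO. Its log2 fold change was 1.07 (SE 0.36, limma adjusted p = 0.17), and WT replicate 3 lay above the lowest Mc4r KO library. Of the words of 50 bases in the Rpl7a transcript, 81.2% occurred in other genes, 120 in number, 112 of them pseudogenes. Rps28, a small protein of the small subunit, had 12.3, 10.7 and 28.2 FPKM in WT and 27.9, 29.7 and 30.1 FPKM in Mc4r KO. Its log2 fold change of 0.91 (SE 0.33, limma adjusted p = 0.19) went with low values in WT replicates 1 and 2, since WT replicate 3 lay within the Mc4r KO range. Rpl41, which encodes one of the shortest proteins known, had 115, 73.6 and 190 FPKM in WT and 219, 217 and 202 FPKM in Mc4r KO. Its groups did not overlap, and the log2 fold change was 0.86 (SE 0.30, limma adjusted p = 0.18). Rpl24 had 7, 13 and 20 reads in WT and 34, 30 and 21 reads in Mc4r KO, so its log2 fold change of 1.04 (SE 0.32, limma adjusted p = 0.14) rested on few reads. Most of its transcript (81.7% of the words) was shared with other genes.

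**Figure D2:**
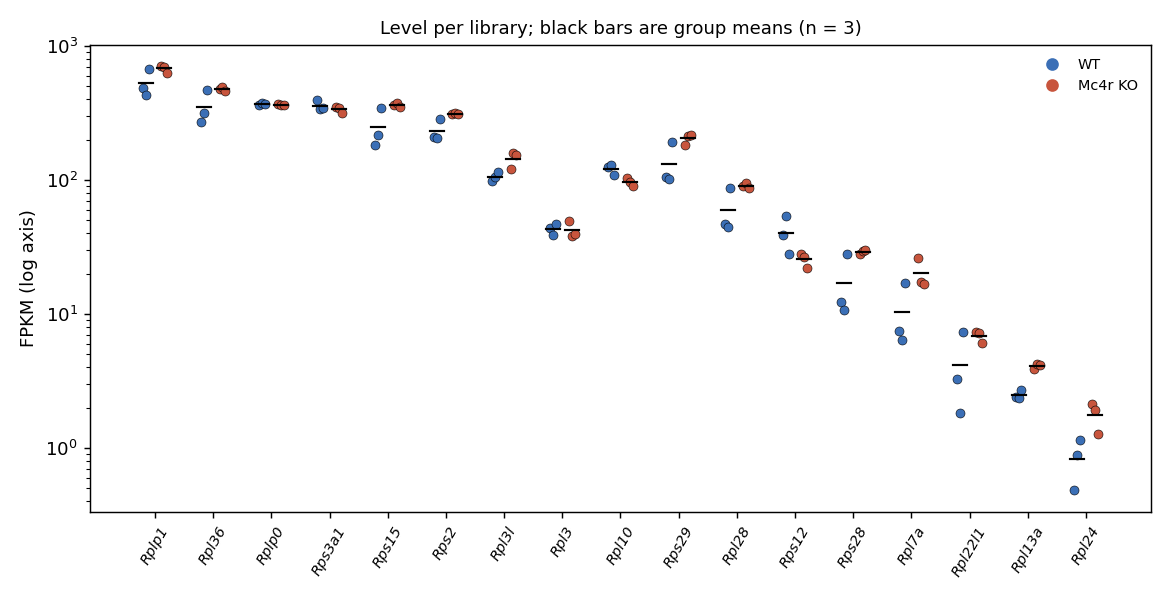
Level in FPKM (log axis) of 17 ribosomal protein genes in each WT (blue) and Mc4r KO (red) library, with the mean of each group (n = 3) as a black bar. Rplp0 and Rps3a1 had group means close to each other, whereas in Rps28, Rpl28 and Rps29 WT replicate 3 sits with the Mc4r KO libraries above the other WT libraries.

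The same order of libraries was found in several strongly expressed genes. Rps29 had 105, 101 and 191 FPKM in WT and 184, 212 and 217 FPKM in Mc4r KO (log2 fold change 0.68, SE 0.24, limma adjusted p = 0.18). Rpl28 had 46.8, 44.9 and 87.9 FPKM in WT and 90.8, 94.7 and 87.1 FPKM in Mc4r KO (log2 fold change 0.67, SE 0.24, limma adjusted p = 0.19). In both genes WT replicate 3 overlapped with the Mc4r KO libraries. Rps15 had 183, 218 and 347 FPKM in WT and 361, 376 and 350 FPKM in Mc4r KO, with WT replicate 3 just below the Mc4r KO range. Rpl36 was the second most strongly expressed member, with 270, 316 and 472 FPKM in WT and 476, 495 and 466 FPKM in Mc4r KO. As in Rps15, the WT libraries of Rps13 were all below its Mc4r KO libraries. Rps13 had 28.7, 21.7 and 37.1 FPKM in WT and 44.8, 54.2 and 45.3 FPKM in Mc4r KO. Its log2 fold change was 0.75 (SE 0.19) with a limma adjusted p of 0.11.

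Rps12, Rpl10, Rpl17, Rpl29 and Rpl14 had the most negative log2 fold changes. Rps12, a protein of the head of the small subunit, had 38.8, 53.8 and 28.1 FPKM in WT and 28.3, 26.9 and 22.1 FPKM in Mc4r KO. WT replicate 3 again lay within the Mc4r KO range, and the log2 fold change was -0.60 (SE 0.23, limma adjusted p = 0.20). Rpl10, needed for the joining of the subunits and encoded on the X chromosome, had 126, 129 and 109 FPKM in WT and 104, 96.3 and 90.8 FPKM in Mc4r KO. Its groups did not overlap (log2 fold change -0.32, SE 0.10, limma adjusted p = 0.15). The log2 fold change was -0.26 for Rpl17, -0.26 for Rpl29 and -0.25 for Rpl14. Of these, the groups of Rpl14 did not overlap, with 103, 100 and 90.5 FPKM in WT and 86.6, 81.9 and 78.2 FPKM in Mc4r KO. The share of words of 50 bases found in other genes was 90.1% for Rps12 and 92.1% for Rpl10. It was 78.7% for Rpl17, 66.6% for Rpl29 and 49.3% for Rpl14.

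The members with well known roles outside protein synthesis or in disease included no call, and their differences varied in size. Rps6, the substrate of the S6 kinases downstream of mTOR, had 173, 171 and 152 FPKM in WT and 158, 160 and 154 FPKM in Mc4r KO (log2 fold change -0.07, SE 0.09). Rpsa, also known as the laminin receptor, had a log2 fold change of -0.03 (SE 0.10). Rps14 and Rps19, whose loss underlies forms of bone marrow failure, had log2 fold changes of 0.12 (SE 0.09) and 0.39 (SE 0.18). Rps3, at the mRNA entry of the small subunit, had 50.9, 52.4 and 64.0 FPKM in WT and 71.4, 69.8 and 67.9 FPKM in Mc4r KO, without overlap (log2 fold change 0.33, SE 0.10, limma adjusted p = 0.15). Rps27a, which is made as a fusion with ubiquitin, had 17.4, 19.4 and 25.3 FPKM in WT and 28.6, 28.9 and 28.5 FPKM in Mc4r KO. It too had groups without overlap (log2 fold change 0.49, SE 0.14, limma adjusted p = 0.12). Among the large subunit genes, the log2 fold change was 0.08 for Rpl10a (SE 0.09), -0.17 for Rpl26 (SE 0.11), 0.26 for Rpl35a (SE 0.13) and 0.33 for Rpl38 (SE 0.31). Rpl38, known for its role in the translation of Hox mRNAs, had a wide spread in WT, with 51.2, 75.1 and 130 FPKM.

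Rpl3l replaces Rpl3 in the ribosomes of striated muscle, and 0% of its words of 50 bases occurred in another gene. The coding sequences of Rpl3l and Rpl3 were identical at 73.1% of the aligned positions, and their longest identical stretch was 22 bases. Rpl3l, on chr17:24727820-24736143 (mm10, + strand), had 98.5, 105 and 114 FPKM in WT and 121, 159 and 153 FPKM in Mc4r KO. All Mc4r KO libraries were above all WT libraries, with a log2 fold change of 0.44 (SE 0.12), but the limma adjusted p was 0.12. Rpl3 had 43.6, 38.9 and 47.3 FPKM in WT and 49.1, 38.0 and 39.4 FPKM in Mc4r KO, and its log2 fold change was -0.04 (SE 0.13). The ratio of Rpl3l to Rpl3 FPKM was 2.26, 2.71 and 2.41 in WT (mean 2.46 ± 0.229, SD, n = 3) and 2.46, 4.18 and 3.88 in Mc4r KO (mean 3.51 ± 0.917, SD, n = 3). Mc4r KO replicates 2 and 3 were above all WT libraries in this ratio, and Mc4r KO replicate 1 lay among them. In every library the FPKM of Rpl3l was higher than that of Rpl3, but the size of this ratio depends on the length and the copies of Rpl3. Its gene length in the file is 3175 bases against 1351 bases for its transcript, while Rpl3l has 1643 and 1375 bases, and 85.6% of the words of Rpl3 occurred in 26 other genes, all pseudogenes. With reads per length of the transcript, the ratio was 1.15, 1.38 and 1.22 in WT and 1.25, 2.12 and 1.97 in Mc4r KO. Whether reads that match several places were counted is not stated, and the part of the copies in the level of Rpl3 was not tested.

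**Figure D3:**
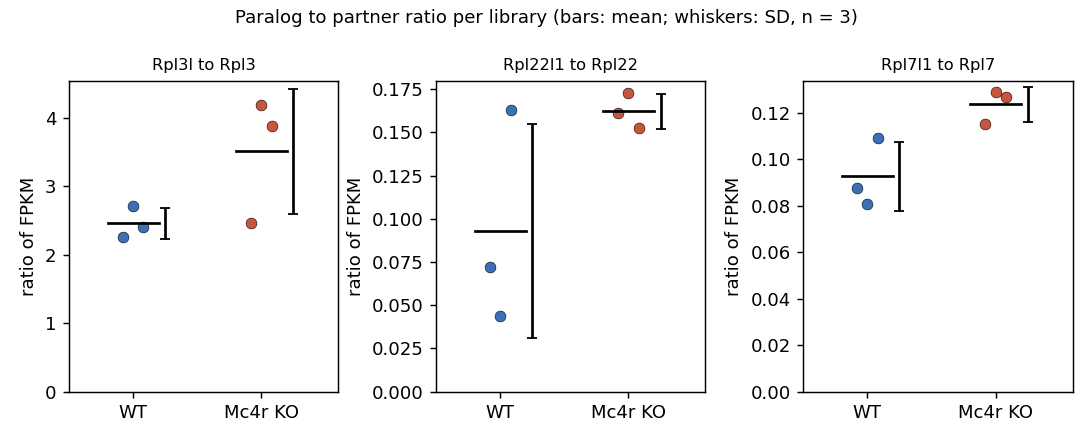
Ratio of the FPKM of a paralog to that of its partner in each WT (blue) and Mc4r KO (red) library for Rpl3l to Rpl3, Rpl22l1 to Rpl22 and Rpl7l1 to Rpl7, with the mean as a bar and the SD as whiskers (n = 3). In Rpl3l to Rpl3, Mc4r KO replicates 2 and 3 reach 4.18 and 3.88, above the WT range, while in Rpl22l1 to Rpl22 WT replicate 3 lies among the Mc4r KO libraries.

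Rpl22l1 is the paralog of Rpl22, with which it shares 66.9% of aligned coding positions. Its level was 3.28, 1.82 and 7.35 FPKM in WT and 7.32, 7.18 and 6.05 FPKM in Mc4r KO. WT replicate 3 was the highest of all libraries, and the log2 fold change was 0.93 (SE 0.44, limma adjusted p = 0.28). Rpl22 stayed between 39.7 and 45.5 FPKM over the 6 libraries (log2 fold change -0.06, SE 0.09). Rpl7l1 had 11.1, 10.3 and 11.5 FPKM in WT and 12.8, 14.3 and 12.3 FPKM in Mc4r KO, without overlap (log2 fold change 0.26, SE 0.09, limma adjusted p = 0.19). Rpl7, a protein of the mature ribosome, was at 127, 127 and 105 FPKM in WT and 111, 111 and 97.3 FPKM in Mc4r KO. Rpl39l had at most 6 reads in a library and Rpl36al at most 4, so differences in these paralogs were not detectable at this depth. Their partners Rpl39 and Rpl36a had log2 fold changes of -0.20 (SE 0.13) and -0.23 (SE 0.09). Rps4x, the X-linked gene for a small subunit protein, had 192, 168 and 157 FPKM in WT and 156, 144 and 146 FPKM in Mc4r KO, without overlap (log2 fold change -0.21, SE 0.10, limma adjusted p = 0.29).

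Rps27rt had the largest standard error of all tested members, and the reads on it and on Rps27 varied widely between libraries. Rps27rt is annotated as a retrogene of Rps27, at chr9:114982366-114982739 (mm10, - strand), whereas Rps27 lies at chr3:90212522-90213651 (mm10, - strand). Their coding sequences of 252 bases in GENCODE M21 were the same at every base, which is why the sequence is shown once and without capitals.
Rps27 and Rps27rt: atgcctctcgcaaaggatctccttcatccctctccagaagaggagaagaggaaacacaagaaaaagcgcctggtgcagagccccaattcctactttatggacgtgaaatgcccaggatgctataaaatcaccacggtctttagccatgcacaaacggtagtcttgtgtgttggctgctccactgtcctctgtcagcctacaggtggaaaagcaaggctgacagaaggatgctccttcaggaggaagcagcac
Reads from this stretch cannot be assigned to one of the genes by their sequence. The reads on Rps27 were 1531, 719 and 2575 in WT and 1058, 1942 and 940 in Mc4r KO. The reads on Rps27rt were 1827, 2014 and 264 in WT and 1495, 682 and 1319 in Mc4r KO. Libraries with many reads on one gene had few on the other, and Rps27rt took between 9.30% and 73.7% of the sum in WT and between 26.0% and 58.6% in Mc4r KO. The sum varied less than either gene, with 3358, 2733 and 2839 reads in WT and 2553, 2624 and 2259 reads in Mc4r KO. Per 1000000 reads outside the mitochondrial chromosome, the sum was 349, 272 and 240 in WT and 226, 228 and 188 in Mc4r KO. All Mc4r KO sums lay below all WT sums, both in reads and on this base. Lower Mc4r KO values were common on such a base. With FPKM scaled to the sum outside this chromosome, the median log2 fold change of all tested genes was -0.19. How much of the lower sum goes with this base was not tested. The log2 fold changes of -0.23 for Rps27 (SE 0.44) and 0.11 for Rps27rt (SE 0.82) are uncertain, as their standard errors show. The cause of the differing split of reads between the libraries was not tested. Rps27l, the third member of the family, shared 76.2% of coding positions and 0 words of 50 bases with Rps27. It had 49.6, 50.9 and 49.8 FPKM in WT and 50.5, 57.2 and 48.2 FPKM in Mc4r KO, a narrow range compared with the other members of the family.

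**Figure D4:**
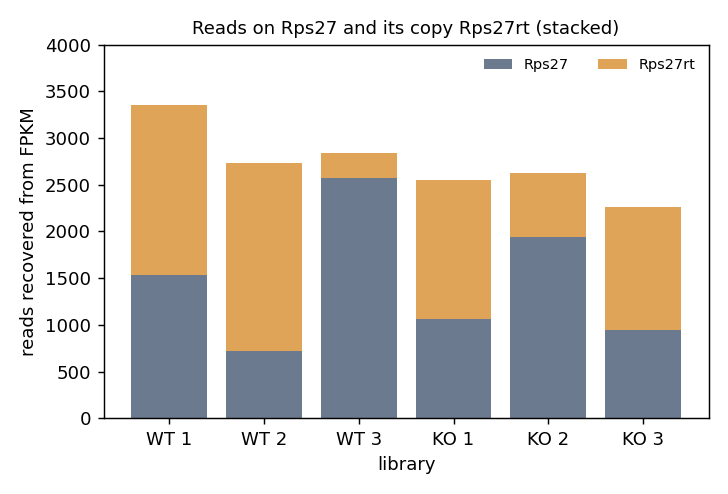
Reads recovered from the FPKM on Rps27 (grey) and Rps27rt (orange), stacked, in each library. The split between the genes differs widely between libraries, from 264 of 2839 reads on Rps27rt in WT replicate 3 to 2014 of 2733 in WT replicate 2, while the sum stays between 2259 and 3358 reads.

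Shared sequence was common among the other members as well. Over all members, a median of 52.2% of the words of 50 bases in the transcript occurred in another gene, 46 members had at least 50% of their words shared, and 82 shared words with a pseudogene. No shared word was found in 4 members, Rpl3l, Rpl39l and Rps19bp1 among them. Across the tested members, Spearman's rho between the log2 fold change and the shared part of the transcript was -0.07. The 39 tested members with less than 50% of their words shared gave 0.14 as their median log2 fold change, with 0 calls. Rows named as ribosomal protein pseudogenes, 297 in number, held reads equal to 3.81% to 4.09% of the reads on the members.

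The log2 fold changes of the members went with the GC content of their transcripts. The 28 members of lowest GC content, from 40.6% to 48.9%, gave 0.03 as their median log2 fold change, with 15 of them higher in Mc4r KO. In the 28 members of middle GC content the median was 0.18. In the 28 members of highest GC content, from 53.9% to 60.8%, it was 0.39, and 25 were higher. Spearman's rho was 0.34 over the 84 members, and it was 0.33 over the 18019 tested genes with a known transcript, so the relation was not limited to the ribosomal protein genes. These points share the same 6 libraries and are not independent. The mean GC content of the transcripts, weighted by their reads, was 50.3%, 50.5% and 51.0% in WT and 51.2% in each Mc4r KO library, with WT replicates 1 and 2 lowest. In the 28 members of highest GC content, the median deviation was -0.32, -0.28 and 0.11 in WT against 0.18, 0.23 and 0.13 in Mc4r KO. After removal of the GC trend of each library over all genes, the median of the members was 0.16 and 0 were called.

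**Figure D5:**
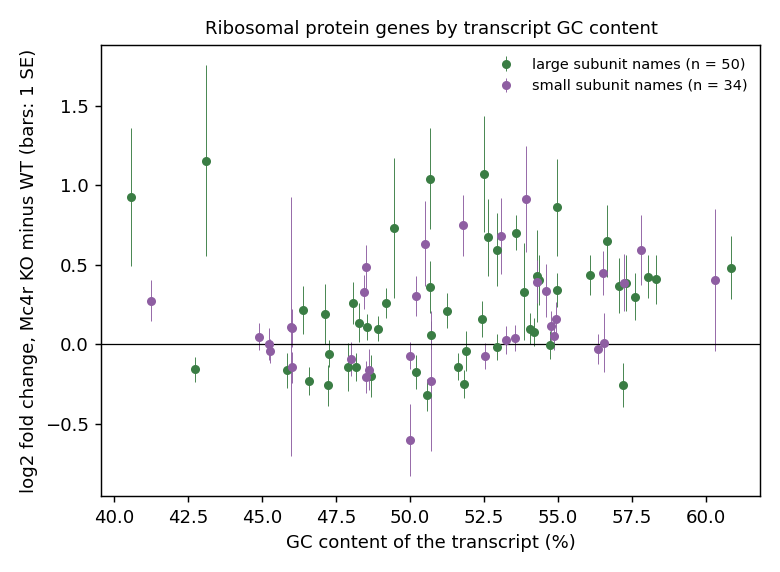
Log2 fold change (Mc4r KO minus WT, bars of 1 SE) of the 84 tested ribosomal protein genes against the GC content of the transcript, with large subunit names in green and small subunit names in purple. The points lie higher on the right, with a median of 0.03 among the 28 members of lowest GC content and 0.39 among the 28 of highest.

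Other genes of the pathway gave no call either. Of 21 translation factors and other TOP mRNAs, 0 were called, 13 had a log2 fold change above 0 and 8 below, with a median of 0.05. Eef1a1, the elongation factor that brings the aminoacyl-tRNA, had 381 ± 24.5 FPKM in WT and 301 ± 51.8 FPKM in Mc4r KO (SD, n = 3, log2 fold change -0.35, SE 0.14, limma adjusted p = 0.21). Eef2, which moves the ribosome along the mRNA, had 404 ± 42.8 and 437 ± 15.4 FPKM (SD, n = 3, log2 fold change 0.12, SE 0.11). Tpt1, another classical TOP mRNA, had a log2 fold change of 0.06 (SE 0.11). Among 50 factors of ribosome biogenesis, 0 were called, 26 lay above 0 and 24 below, with a median of 0.07. Ncl, the nucleolar protein nucleolin, had 18.5 ± 1.24 FPKM in WT and 14.5 ± 0.358 FPKM in Mc4r KO (SD, n = 3, log2 fold change -0.35, SE 0.08, limma adjusted p = 0.10). Nop10, a subunit of the particles that make pseudouridine in rRNA, had a log2 fold change of 0.46 (SE 0.13, limma adjusted p = 0.12), and Sbds, which helps to release Eif6 from the large subunit, one of -0.09 (SE 0.09). Among 21 regulators of TOP mRNA translation and ribosome production, 0 were called, 12 lay above 0 and 9 below, with a median of 0.03. Eif4e, the cap-binding protein, had 26.5 ± 5.43 FPKM in WT and 18.3 ± 0.460 FPKM in Mc4r KO (SD, n = 3, log2 fold change -0.51, SE 0.14, limma adjusted p = 0.12). Maf1, the repressor of RNA polymerase III, and Eif4ebp1, a mTOR substrate that holds Eif4e, had log2 fold changes of 0.02 (SE 0.12) and -0.19 (SE 0.14).

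Markers of other cells in the heart varied between the libraries beside these results. All 7 red blood cell markers had a log2 fold change below 0, with sums from 860 to 6345 FPKM in WT and from 620 to 1652 FPKM in Mc4r KO. All 6 atrial markers were below 0, with sums from 36.0 to 831 FPKM in WT and from 12.8 to 147 FPKM in Mc4r KO, the highest in WT replicate 3. Of the 7 B cell markers 6 were below 0, with sums from 79.2 to 140 FPKM and from 57.6 to 155 FPKM. The fibroblast markers summed to between 254 and 291 FPKM in WT and between 198 and 232 FPKM in Mc4r KO, with 6 of 8 below 0. The endothelial markers (182 to 214 against 191 to 221 FPKM, 5 of 8 above 0) and the macrophage markers (184 to 286 against 228 to 289 FPKM, 4 of 8 above 0) overlapped between the groups. Of the adipocyte markers 3 of 8 were tested, Lep and Retn were at 0, and the sums were 107 to 150 and 145 to 157 FPKM. Of the 10 cardiomyocyte markers 8 were above 0, with sums from 14807 to 16108 FPKM in WT and from 18007 to 19634 FPKM in Mc4r KO. Within these sums, Actc1 alone had a mean of 5178 FPKM in WT and 7539 FPKM in Mc4r KO. None of the marker genes was called, and their part in the levels of the ribosomal protein genes was not tested.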

How the data were processed

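Polyadenylated RNA from the hearts of 3 WT and 3 Mc4r KO mice was sequenced in paired ends. Per the labels, the authors used CASAVA, HISAT2 2.0.5 and build mm10, and they deposited FPKM per gene and library. The annotation release is not given in the sources used here, nor whether strand was used. Reads were recovered from FPKM and gene length, and 100% of values were whole within 0.05 reads. The log2 fold change was tested with limma 3.58.1 (R 4.3.3, mean-variance trend, two-sided, Benjamini-Hochberg over 18035 genes) on log2(FPKM + 0.1), a scale that understates changes of low genes. The median-of-ratios factors were equal in all libraries, so the deposited FPKM were already on this scale. An exact permutation test of 3 against 3 cannot go below 0.1. The script was tested on simulated data.

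Transcripts came from GENCODE M21 and promoters from RefSeq (GRCm38.p6). The members and lists were chosen with earlier results of these data known. Named genes are the 5 most positive and 5 most negative log2 fold changes at a mean of at least 1 FPKM, the 5 highest levels, paralogs, members fixed by role and the 3 highest of each pathway list. Rps27rt, Rpl8, Rpl21, Rpl23a, Rpl28, Rpl35, Rps2, Rps9, Rps10, Rps13, Rps16 and Rps29 were added with their values in view. As alternatives, other pseudocounts, filters, scalings, weights, covariates and variance models, limma voom on the recovered reads, and fits without each library in turn were run. Values of a few individual genes are left out here.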

Additional observations from a re-analysis of the deposited data

How the results depend on the processing

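Of the 84 tested genes 0 were called under every alternative but 2. Array weights gave 7 calls, and the fits that left out 1 library gave from 0 to 13 calls, with 13 without WT replicate 3. The median log2 fold change lay between 0.12 and 0.24 without each library in turn. It was -0.036 with the values scaled to the nuclear sum, -0.024 after quantile normalization and -0.032 with the mitochondrial share of reads as a covariate. The ratio of the summed level was 1.199 with all FPKM as the base and 1.12 for FPKM as deposited, and it lay between 0.949 and 1.004 without each library in turn. The mean ratio of Rpl3l to Rpl3 was 1.25 in WT and 1.78 in Mc4r KO with the length of the transcript in place of that of the gene. The transcript length, the removal of the GC trend, the members with little shared sequence and the sum of the FPKM as deposited were chosen after seeing the data.

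With the replicate number as a replicate block, 0 members were called and the median was 0.16. Same-numbered libraries did not deviate together (correlations of -0.14, 0.0074 and -0.08 over 11297 genes), so the numbers pair nothing.

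For 53 named genes, 1111 log2 fold changes under the alternatives were compared with the values reported, and 1071 kept their side of the threshold and their direction, where a change of sign within 1 SE of the reported value was not counted (38 values). Another 20 passed the threshold, under array weights or without WT replicate 3, and 20 turned their sign. Rps14 was -0.079 with values scaled to the nuclear sum, -0.073 after quantile normalization and -0.026 after removal of the GC trend. The mitochondrial share was higher in every WT library than in every Mc4r KO library. As a covariate it therefore cannot be well separated from the genotype, and in 6 libraries it leaves few degrees of freedom. With this covariate, the log2 fold change was -0.027 for Rplp1, -0.099 for Rpl36, -0.072 for Rps15, -0.061 for Rpl23a, -0.17 for Rps9, -0.59 for Rpl38, -0.19 for Rps16, -0.046 for Rpl28, -0.093 for Rpl11, -0.11 for Rps19, -0.073 for Rps28, -0.086 for Rpl35a and -0.13 for Rpl22l1. It was 0.11 for Rpl26, 0.074 for Rpl7, 0.054 for Rpl29 and 0.091 for Rpl17. The cause of these changes was not tested. Depth limits Rpl24, Rpl39l, Rpl36al and Rps10, which had few reads.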
